A study of Homo sapiens with 18 samples.

Results

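The synthetic androgen R1881 was given to LNCaP cells in which either UPF1 or RCOR1 had been knocked down, and the androgen response with UPF1 siRNA was compared gene by gene with that with RCOR1 siRNA. The quantity reported is the log2 fold change of R1881 over vehicle with UPF1 siRNA, minus the same fold change with RCOR1 siRNA. It was taken from 12 of the 18 RNA-seq libraries of the study, and the control siRNA libraries were not used. Of 60649 genes in the count table, the 15076 that passed a filter on low counts were tested. A positive difference means that a gene was raised more, or lowered less, by R1881 with UPF1 siRNA than with RCOR1 siRNA.

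LNCaP is a human prostate adenocarcinoma line in which androgen drives secretory genes of the luminal prostate, such as KLK3, which encodes prostate-specific antigen. Many other genes fall under androgen as cells differentiate and leave the cycle. UPF1 is the RNA helicase of nonsense-mediated decay (NMD), the cytoplasmic pathway that removes transcripts with premature stop codons and a number of normal ones. RCOR1 (CoREST) is the scaffold that joins the demethylase KDM1A to histone deacetylases on chromatin. The study asked how far the androgen response depends on UPF1 and on RCOR1.

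The 4 groups were UPF1 siRNA with R1881, UPF1 siRNA with vehicle, RCOR1 siRNA with R1881, and RCOR1 siRNA with vehicle, with 3 libraries each that the labels call biological triplicates. Each target was knocked down with 1 SmartPool of siRNAs, so effects of a pool on other genes cannot be told apart from those of its target. All cells were kept in androgen-deprived medium from the day after transfection, received 5 nM R1881 or ethanol 48 h after transfection, and were collected 48 h later. In such bulk RNA, fewer cells with a transcript and less of it per cell cannot be told apart. Levels are in CPM (counts scaled to library size), and totals ran from 11950288 to 17338235 counts per library.

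The knockdowns followed the labels. UPF1 had 26.5, 26.1 and 25.2 CPM in R1881 and 21.2, 22 and 25.8 CPM in vehicle with UPF1 siRNA, against 132, 114 and 109 CPM in R1881 and 119, 115 and 102 CPM in vehicle with RCOR1 siRNA. RCOR1 had 89.3, 89 and 84.5 CPM in R1881 and 85.7, 84.5 and 88 CPM in vehicle with UPF1 siRNA, against 13.3, 12.4 and 12.4 CPM in R1881 and 16.6, 9.45 and 13.9 CPM in vehicle with RCOR1 siRNA. Each target was thus low in all 6 libraries of its own siRNA and did not overlap with the other arm. The R1881 responses of the targets were not called different, with differences of 0.09 ± 0.15 for UPF1 and 0.09 ± 0.21 for RCOR1 (log2 ± SE; edgeR adjusted p = 0.732 and 0.805). The luminal and epithelial genes FOXA1, HOXB13, KRT8, KRT18, EPCAM, FOLH1 and KLK3 were all measured. Of 23 markers of other cell types, 6 (TP63, COL1A2, HBB, CD3E, KRT5 and CDH5) had no count in any of the 12 libraries. Of the rest, VWF had 60 to 404 counts per library, ACTA2 34 to 260 and COL1A1 57 to 201. COL3A1 had 4 to 195 and KRT14 11 to 108, and the others 13 or fewer. VWF averaged 13.85 and 26.3 CPM in R1881 and vehicle with UPF1 siRNA, against 5.77 and 7.64 CPM with RCOR1 siRNA. The summed level of all 23 lay at 34.6 to 38.9 and 49 to 56.6 CPM in R1881 and vehicle with UPF1 siRNA. With RCOR1 siRNA it lay at 34.1 to 38.7 and 26.5 to 34.3 CPM.

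Before any result, 2 libraries have to be named. Replicates 1 and 2 of UPF1 siRNA with R1881 held less of AT-rich transcripts than the other 10. The median deviation of genes below 40% GC from their mean over the libraries was -0.66 and -0.46 in these, against -0.14 to 0.41 in the rest (log2 CPM). MALAT1, a long nuclear RNA, had 3708 and 4532 CPM in them, against 12910 to 34960 CPM elsewhere. In the order of deposition, the low-GC deviation rose within all 4 groups. It was 0.04 in replicate 3 of UPF1 siRNA with R1881, and -0.11, 0.27 and 0.41 in vehicle. With RCOR1 siRNA it was -0.03, 0.30 and 0.35 in R1881 and -0.14, -0.12 and 0.29 in vehicle. Whether the groups share an order of handling was not tested. Across genes the difference in response correlated with GC content (Spearman correlation 0.579, a description over 14900 genes that share the same 12 libraries). The median difference was -0.71 over the 2393 genes below 40% GC and 0.21 over the 4146 genes above 55% GC. With offsets that remove the GC trend within each library, the correlation was -0.04, which follows from how they are made. Such offsets also remove any part of an siRNA or R1881 effect that follows GC content. Without the 2 libraries the correlation was 0.36. Leaving out both keeps 1 library in their group, and its spread is then taken from the other groups. Loss of calls through fewer libraries and through GC content thus cannot be told apart. Leaving out 1 of the other 10 libraries also moved the number of calls, to between 37 and 2481. The 2 libraries with less of AT-rich transcripts are called the AT-poor libraries below. Of the 237 genes called in the comparison of responses, only 9 were also called without both of them: AFF3, AMOTL1, EGR1, KCNMA1, KLK2, MYNN, SIPA1L2, SLC16A9 and RP11-816J6.3. Every other gene given below as called for that comparison was not called without the AT-poor libraries, and values with GC offsets are given beside the named genes whose call was lost with them.

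**Figure D1:**
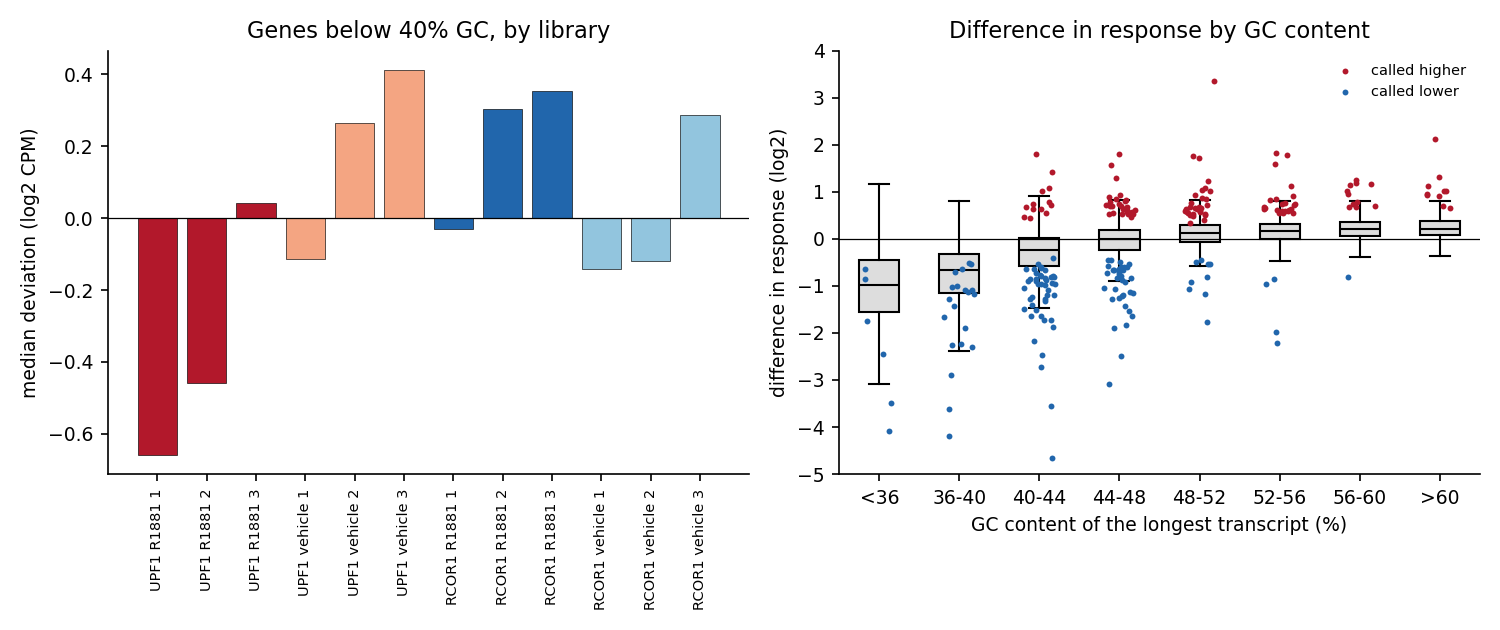
Left, median deviation of genes below 40% GC in each of the 12 libraries (log2 CPM, relative to each gene's mean). Right, difference in R1881 response (UPF1 siRNA minus RCOR1 siRNA, log2) by GC content of the longest transcript; boxes show quartiles over all genes tested, whiskers reach to 1.5 interquartile ranges, and dots show called genes (HLA-B, at -9.46, lies outside the axis). Replicates 1 and 2 of UPF1 siRNA with R1881 are lowest at the left, and genes below 40% GC have a median difference of -0.71 at the right.

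Both arms responded broadly to R1881. A response was called, at a Benjamini-Hochberg adjusted p below 0.05 in edgeR's quasi-likelihood test, for 6348 genes with UPF1 siRNA (42.1% of those tested; 2969 higher and 3379 lower) and 4793 genes with RCOR1 siRNA (31.8%; 2359 higher and 2434 lower). Of the genes called in both arms, 3313 moved in the same direction and 28 in opposite directions. The difference between the responses was called for 237 genes (1.57%), 116 of them higher (0.769%) and 121 lower (0.803%) with UPF1 siRNA. The median difference over all genes tested was 0.03. Scaling by library size alone moved that median to 0.13 and the split to 156 higher and 99 lower.

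The called differences were of several kinds. In 78 genes both arms moved in the same direction and further with UPF1 siRNA (52 rises and 26 falls), and in 35 they moved in the same direction and less far (24 rises and 11 falls). In 78 genes the response was called with UPF1 siRNA alone (35 rises and 43 falls), and in 21 with RCOR1 siRNA alone (11 rises and 10 falls). The responses of the remaining 25 genes were called in opposite directions: 17 fell with UPF1 siRNA and rose with RCOR1 siRNA, and 8 did the reverse. The direct comparison of UPF1 siRNA with RCOR1 siRNA called 6293 genes in R1881 (41.7%) and 5203 in vehicle (34.5%). Of the 237 genes it called 76 in vehicle alone, 70 in R1881 alone and 91 in both, 29 of these with opposite sign.

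**Figure D2:**
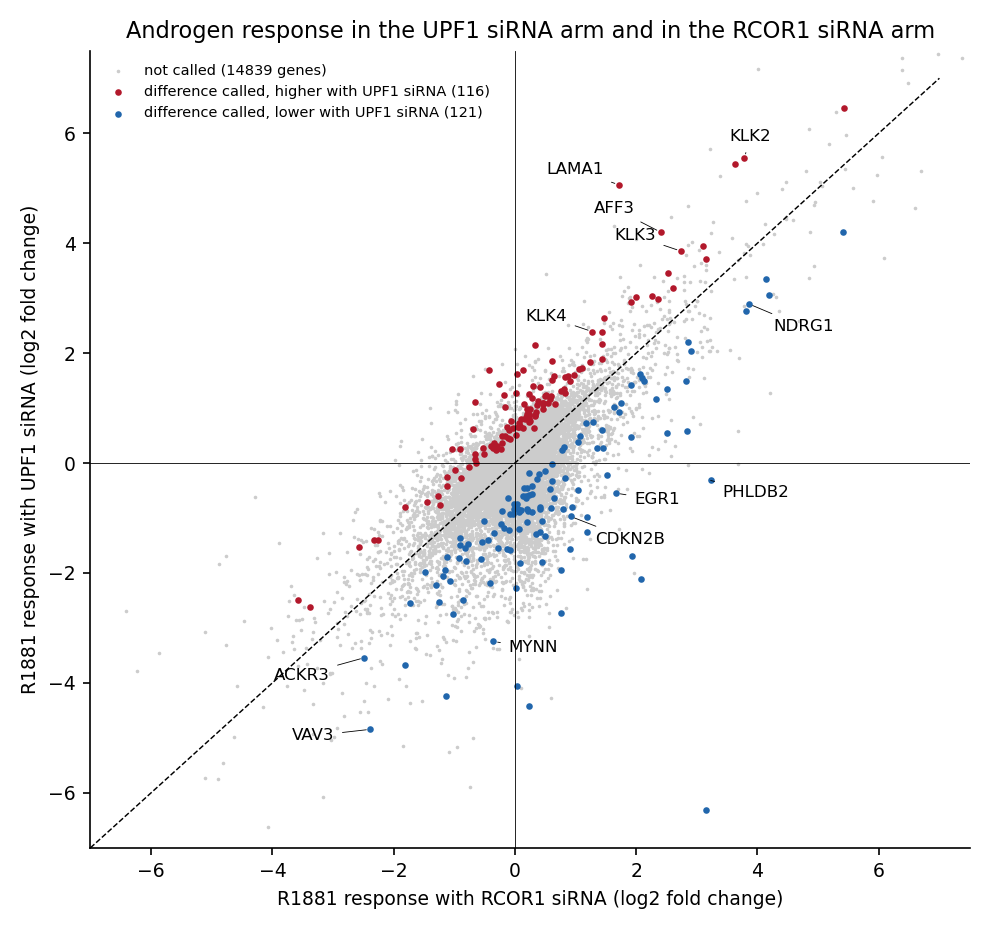
R1881 response with UPF1 siRNA (vertical) against the response with RCOR1 siRNA (horizontal), both as log2 fold change, for 15076 genes; 15 genes lie outside the axes. Red dots mark the 116 genes called with a higher and blue dots the 121 called with a lower response in the UPF1 siRNA arm, and the dashed line marks equal responses.

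Several well known androgen targets were among the genes whose response was larger with UPF1 siRNA. KLK2, KLK3 and KLK4 encode neighbouring serine proteases of the kallikrein family that the luminal epithelium secretes. KLK2 and KLK3 are close copies, and their promoters, the windows from 250 bases before to 50 after the transcription start (RefSeq, GRCh38.p14, plus strand), show it. They are printed because these genes have the largest called positive differences among the listed androgen-induced genes; capitals mark the hexamers AGAACA or GGAACA, the form of 1 arm of a steroid response element. The KLK2 window is chr19:50873189-50873488 and the KLK3 window is chr19:50854665-50854964.
KLK2: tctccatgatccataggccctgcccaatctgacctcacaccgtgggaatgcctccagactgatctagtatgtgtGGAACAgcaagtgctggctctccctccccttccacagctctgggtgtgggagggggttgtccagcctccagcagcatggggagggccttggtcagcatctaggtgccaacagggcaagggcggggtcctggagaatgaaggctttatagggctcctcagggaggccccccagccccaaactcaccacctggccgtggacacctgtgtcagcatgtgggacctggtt
KLK3: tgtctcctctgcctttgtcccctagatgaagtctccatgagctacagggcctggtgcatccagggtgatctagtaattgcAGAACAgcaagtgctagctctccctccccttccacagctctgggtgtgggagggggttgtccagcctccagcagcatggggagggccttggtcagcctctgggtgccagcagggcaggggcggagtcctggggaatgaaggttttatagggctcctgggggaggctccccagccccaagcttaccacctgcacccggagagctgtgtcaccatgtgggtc
The hexamer lies at -176 to -171 from the start in KLK2 and at -170 to -165 in KLK3, and the windows share an identical run of 80 bases. A search of both strands found either hexamer in 9215 of 35116 promoter windows (26.2%), so a match is frequent by itself. The windows of KLK4 number 2, of which the one at chr19:50911346-50911645 holds GGAACA at -71 to -66.

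KLK2 (ENSG00000167751.13, chr19:50861568-50880567) had 482, 465 and 413 CPM in R1881 and 9.92, 10.6 and 8.49 CPM in vehicle with UPF1 siRNA, against 322.5, 262 and 290 CPM in R1881 and 21.8, 21.9 and 19.7 CPM in vehicle with RCOR1 siRNA. It was highest in all 3 R1881 libraries and lowest in all 3 vehicle libraries with UPF1 siRNA, without overlap. The responses were 5.55 with UPF1 siRNA and 3.79 with RCOR1 siRNA, which gave a difference of 1.77 ± 0.15 (log2 ± SE; edgeR adjusted p = 0.00049). KLK3 (ENSG00000142515.15, chr19:50854915-50860764) had 3540, 3463 and 3079 CPM in R1881 and 243.5, 226 and 227 CPM in vehicle with UPF1 siRNA, against 2924, 2338 and 2577 CPM in R1881 and 390, 423 and 364 CPM in vehicle with RCOR1 siRNA. Its levels were ordered like those of KLK2, with the lowest values in vehicle with UPF1 siRNA. The responses were 3.86 with UPF1 siRNA and 2.74 with RCOR1 siRNA, a difference of 1.12 ± 0.13 (adjusted p = 0.00322). KLK4 (ENSG00000167749.11, chr19:50906352-50910738) had 201.5, 190 and 168 CPM in R1881 and 36.3, 35.2 and 35 CPM in vehicle with UPF1 siRNA, against 274, 252 and 240 CPM in R1881 and 104, 120 and 92.7 CPM in vehicle with RCOR1 siRNA. In contrast to KLK2, its R1881 level was lower with UPF1 siRNA, and the larger response, by 1.12 ± 0.14 (log2 ± SE; edgeR adjusted p = 0.00574), went with a vehicle level that averaged 35.5 CPM with UPF1 siRNA against 106 CPM with RCOR1 siRNA. All 3 kallikreins were called in each of the 12 fits that leave out 1 library, and KLK2 also without both AT-poor libraries (adjusted p = 0.0181). Reads that fit both KLK2 and KLK3 may have been assigned to either.

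TMPRSS2, a membrane serine protease whose promoter is the usual partner in ETS fusions of prostate cancer, had 1780, 1731 and 1610 CPM in R1881 and 192, 182 and 186.5 CPM in vehicle with UPF1 siRNA, against 1562, 1388 and 1435 CPM in R1881 and 236, 254.5 and 233 CPM in vehicle with RCOR1 siRNA. It was higher in R1881 and lower in vehicle with UPF1 siRNA, and the difference was 0.59 ± 0.09 (adjusted p = 0.0159). FKBP5, a co-chaperone of steroid receptors and among the steepest androgen targets, had 1346, 1408 and 1429 CPM in R1881 and 46.3, 52.3 and 56.8 CPM in vehicle with UPF1 siRNA, against 1782, 1764 and 1999 CPM in R1881 and 57.8, 56.9 and 64.2 CPM in vehicle with RCOR1 siRNA. Its difference was -0.20 ± 0.12 and was not called (log2 ± SE; edgeR adjusted p = 0.305), and with GC offsets it was 0.19.

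**Figure D3:**
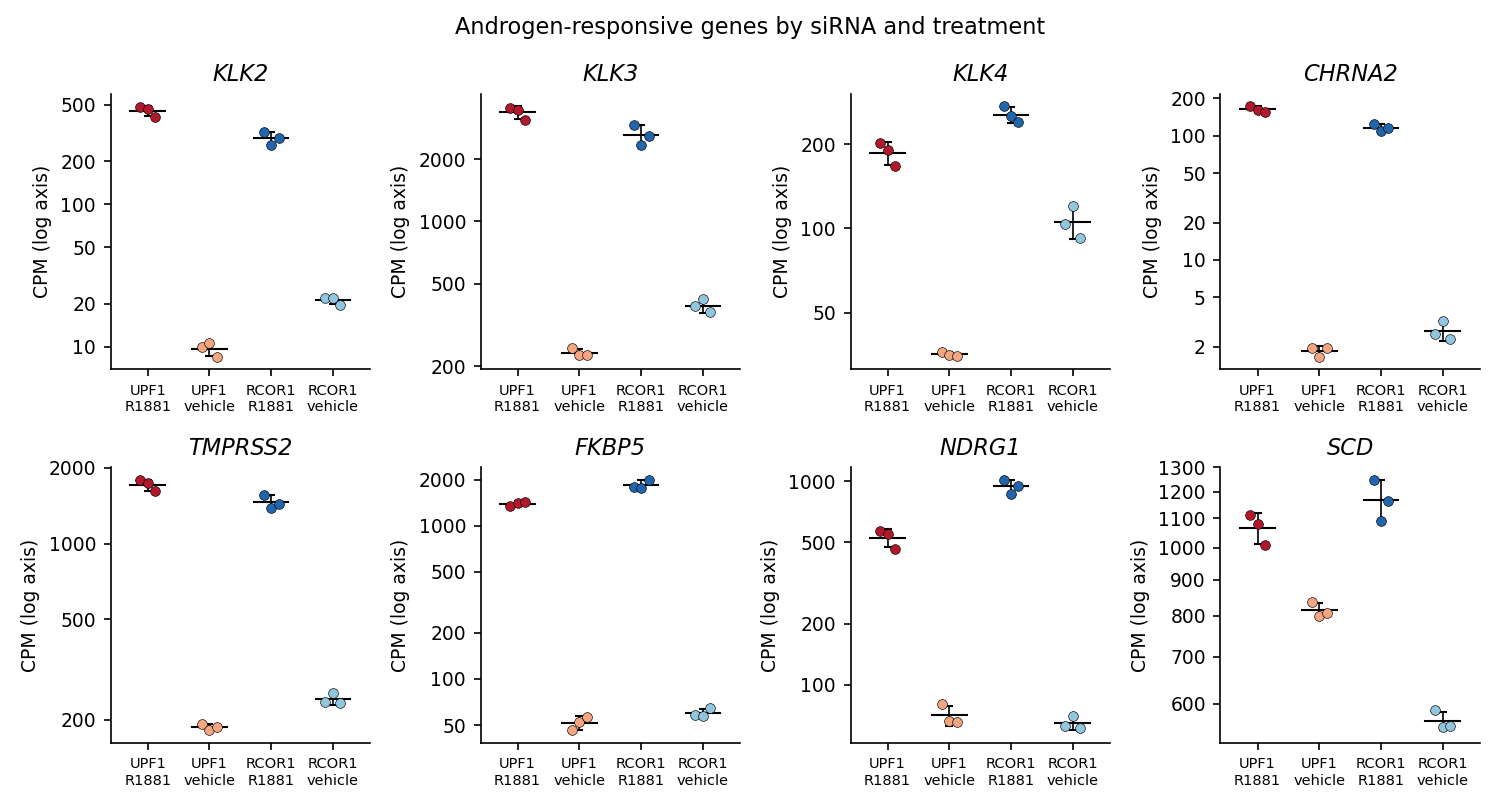
Levels in CPM (log axis) of 8 genes by siRNA and treatment; points are libraries, and bars show mean ± SD of 3 libraries. KLK2, KLK3, KLK4, CHRNA2 and TMPRSS2 have lower vehicle levels with UPF1 siRNA and a larger called response, FKBP5 is not called, and NDRG1 and SCD respond less with UPF1 siRNA.

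Not all androgen-induced genes went this way. Of 46 listed genes tested, 10 had a higher and 5 a lower called response with UPF1 siRNA, beside 0.769% and 0.803% of all genes tested. The median difference was -0.07, beside 0.03 over all genes tested, and was -0.06 without the AT-poor libraries. The median response was 2.18 with UPF1 siRNA and 2.31 with RCOR1 siRNA. The list's median was 0.03 when libraries were scaled by size alone, so it has no firm sign. CHRNA2, TSC22D3, MAF, PMEPA1 and ADAMTS1 also rose further, by between 0.33 and 1.02. CHRNA2, a nicotinic acetylcholine receptor subunit, had 174, 162 and 156.5 CPM in R1881 and 1.97, 1.66 and 1.94 CPM in vehicle with UPF1 siRNA, against 125, 109.5 and 115 CPM in R1881 and 2.55, 3.2 and 2.3 CPM in vehicle with RCOR1 siRNA. Its levels were at or below 3.2 CPM in every vehicle library and at 109.5 CPM or above in every R1881 library.

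The 5 genes with a lower response were NDRG1, AZGP1, STEAP1, ERRFI1 and ACP3. NDRG1, a stress-responsive gene that androgen also induces, had 566, 551 and 466 CPM in R1881 and 80.4, 66.4 and 66 CPM in vehicle with UPF1 siRNA, against 1017, 868 and 943 CPM in R1881 and 62.9, 70.7 and 61.4 CPM in vehicle with RCOR1 siRNA. The vehicle levels of the arms overlapped and the R1881 levels did not, and the difference was -0.96 ± 0.15 (log2 ± SE; edgeR adjusted p = 0.013). AZGP1, a secreted zinc-binding glycoprotein of prostate fluid, rose by 2.04 with UPF1 siRNA and by 2.90 with RCOR1 siRNA. ERRFI1, a feedback inhibitor of the EGF receptor, rose by 1.48 with UPF1 siRNA and by 2.13 with RCOR1 siRNA. Its difference was not called with GC offsets (-0.43, edgeR adjusted p = 0.0823) and was called in 6 of the 12 fits without 1 library. For the prostatic acid phosphatase gene ACP3, with 537, 529 and 525.5 CPM in R1881 and 652, 585 and 564 CPM in vehicle with UPF1 siRNA, against 225, 218 and 225 CPM in R1881 and 185, 193 and 189 CPM in vehicle with RCOR1 siRNA, the responses were -0.18 with UPF1 siRNA and 0.24 with RCOR1 siRNA. That call was lost with GC offsets (difference -0.20, adjusted p = 0.371) and in each of the 12 fits without 1 library.

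Of 21 androgen-repressed genes tested, IL1RN and DDC fell less and ACKR3 fell further with UPF1 siRNA. Among all genes tested 0.769% were called higher and 0.803% lower. The list's median difference was -0.10, and 18 of its genes were not called. DDC, the decarboxylase that makes dopamine and serotonin, had 26.2, 29.8 and 30.1 CPM in R1881 and 168.5, 170 and 189.5 CPM in vehicle with UPF1 siRNA, against 2.89, 3.98 and 4.08 CPM in R1881 and 37.4, 38 and 38.9 CPM in vehicle with RCOR1 siRNA. It was higher with UPF1 siRNA in both treatments, and R1881 lowered it by 2.62 with UPF1 siRNA, against 3.39 with RCOR1 siRNA (log2; 0.77 ± 0.16, edgeR adjusted p = 0.0424). ACKR3, a scavenger receptor for the chemokine CXCL12, had 6.81, 6.08 and 6.04 CPM in R1881 and 79.4, 71.8 and 70.1 CPM in vehicle with UPF1 siRNA, against 23.3, 22.2 and 21.4 CPM in R1881 and 131.5, 134 and 107 CPM in vehicle with RCOR1 siRNA. Here the UPF1 siRNA arm was lower in both treatments, and the difference was -1.06 ± 0.15 (log2 ± SE; edgeR adjusted p = 0.00773). IL1RN, the antagonist of the interleukin-1 receptor, fell by 2.49 with UPF1 siRNA and by 3.58 with RCOR1 siRNA.

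Outside the androgen lists, the largest called positive differences included extracellular, signalling and RNA genes. LAMA1, a laminin alpha chain of basement membranes, had 10.9, 10.9 and 10.6 CPM in R1881 and 0.543, 0.158 and 0.216 CPM in vehicle with UPF1 siRNA, against 4.18, 3.45 and 5.14 CPM in R1881 and 1.04, 1.02 and 1.89 CPM in vehicle with RCOR1 siRNA. It was the highest in R1881 and the lowest in vehicle with UPF1 siRNA, and the difference was 3.35 ± 0.47 (log2 ± SE; edgeR adjusted p = 0.00796). The vehicle libraries with UPF1 siRNA held 8, 2 and 3 counts, so its fold change there rests on few reads. AFF3, a member of the AF4 family of transcription elongation factors (ENSG00000144218.21, chr2:99545419-100142739), had 97.2, 94.6 and 96.8 CPM in R1881 and 4.62, 5.38 and 5.68 CPM in vehicle with UPF1 siRNA, against 149, 161 and 157 CPM in R1881 and 28, 30.8 and 29.7 CPM in vehicle with RCOR1 siRNA. It rose in both arms and stayed lower with UPF1 siRNA in both treatments, but by more in vehicle, so the response was larger by 1.80 ± 0.12 (adjusted p = 7.96e-05; without both AT-poor libraries, adjusted p = 0.00394). PSLNR, a prostate long noncoding RNA, had 26.2, 26.3 and 24.3 CPM in R1881 and 0.408, 0.554 and 0.791 CPM in vehicle with UPF1 siRNA, against 10.2, 8.05 and 8.16 CPM in R1881 and 0.653, 0.8 and 0.658 CPM in vehicle with RCOR1 siRNA. Vehicle levels were below 1 CPM in all 6 libraries, and the R1881 level with UPF1 siRNA was the higher.

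REXO5, an RNA exonuclease gene, responded with UPF1 siRNA alone. It had 32.9, 32.4 and 30.4 CPM in R1881 and 8.76, 10.5 and 10.4 CPM in vehicle with UPF1 siRNA, against 22, 17.3 and 22.8 CPM in R1881 and 20, 19.7 and 16.9 CPM in vehicle with RCOR1 siRNA. The response was 1.69 with UPF1 siRNA and 0.13 with RCOR1 siRNA, and the difference was 1.56 ± 0.17 (log2 ± SE; edgeR adjusted p = 0.00257). WNT5A, a ligand of noncanonical Wnt signalling, had 8.47, 10.5 and 8.31 CPM in R1881 and 3.12, 3.96 and 4.46 CPM in vehicle with UPF1 siRNA, against 9.65, 8.4 and 7.26 CPM in R1881 and 10.6, 8.36 and 9.62 CPM in vehicle with RCOR1 siRNA. Its R1881 levels overlapped between the siRNAs, and all 3 vehicle libraries with UPF1 siRNA were below those with RCOR1 siRNA. SCNN1G, the gamma subunit of the epithelial sodium channel, had 12.1, 12 and 12.7 CPM in R1881 and 4.08, 4.04 and 3.74 CPM in vehicle with UPF1 siRNA, against 6.69, 4.24 and 4.16 CPM in R1881 and 5.16, 4.22 and 5.43 CPM in vehicle with RCOR1 siRNA. The same pattern of a rise with UPF1 siRNA alone was called for CCDC163 (difference 1.71 ± 0.29) and for ANG, a secreted ribonuclease (difference 1.83 ± 0.27). ANG shares its locus with RNASE4, so its reads are of uncertain assignment. CEACAM1, a cell adhesion molecule, was instead called lower with RCOR1 siRNA alone, at 0.26 with UPF1 siRNA and -1.04 with RCOR1 siRNA.

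Some genes answered R1881 in opposite directions, or nearly so. EGR1, the immediate early zinc finger factor (ENSG00000120738.8, chr5:138465490-138469315), had 4.01, 3.46 and 2.77 CPM in R1881 and 5.43, 5.31 and 4.39 CPM in vehicle with UPF1 siRNA, against 3.72, 3.54 and 2.94 CPM in R1881 and 1.31, 0.8 and 1.07 CPM in vehicle with RCOR1 siRNA. The R1881 levels overlapped between the siRNAs, while every vehicle library with UPF1 siRNA was above every one with RCOR1 siRNA. It fell by 0.55 with UPF1 siRNA and rose by 1.67 with RCOR1 siRNA, a difference of -2.22 ± 0.30 (log2 ± SE; edgeR adjusted p = 0.00654; 0.0473 without both AT-poor libraries). It was the only member of 21 immediate early genes that edgeR called, beside 1.57% of all genes tested, and their median difference was -0.10. DESeq2 called 4 of the 21, beside 863 of all 15076 genes tested. With GC offsets edgeR called 1 higher and 4 lower, at a median of -0.27, beside 468 and 370 of all genes tested. CDKN2B encodes p15, an inhibitor of the cyclin D kinases. It had 16.4, 17.3 and 18.3 CPM in R1881 and 37, 35.9 and 28.9 CPM in vehicle with UPF1 siRNA, against 19.1, 22.6 and 26.8 CPM in R1881 and 9.66, 12.5 and 14.1 CPM in vehicle with RCOR1 siRNA. It fell by 0.97 with UPF1 siRNA and rose by 0.92 with RCOR1 siRNA, and its difference was -1.89 ± 0.23 (adjusted p = 0.00379).

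MYNN, a zinc finger gene of the POZ family (ENSG00000085274.16, chr3:169772831-169789716), had the most negative difference among genes called in all 12 fits without 1 library. It had 14.3, 16 and 29.5 CPM in R1881 and 149, 193 and 223 CPM in vehicle with UPF1 siRNA, against 23.4, 26.8 and 28.9 CPM in R1881 and 32.5, 29.7 and 38.9 CPM in vehicle with RCOR1 siRNA. The vehicle libraries with UPF1 siRNA stood far above the other 9, and the responses were -3.25 with UPF1 siRNA and -0.35 with RCOR1 siRNA. The difference was -2.89 ± 0.34 (log2 ± SE; edgeR adjusted p = 0.00379); MYNN has 37.9% GC, and with GC offsets the difference was -2.17 (adjusted p = 4.84e-06). DSC2, a desmosomal cadherin of epithelia, had 161, 190 and 259 CPM in R1881 and 295, 319 and 335 CPM in vehicle with UPF1 siRNA, against 210, 277 and 282 CPM in R1881 and 139, 146 and 208 CPM in vehicle with RCOR1 siRNA. Its R1881 libraries overlapped between the siRNAs, and the vehicle levels were higher with UPF1 siRNA. DSC2 has 39% GC, and its difference of -1.28 ± 0.27 was -0.67 with GC offsets. PHLDB2, which links microtubules to the cell cortex, had 0.229, 0.277 and 0.252 CPM in R1881 and 0.34, 0.317 and 0.288 CPM in vehicle with UPF1 siRNA, against 1.98, 1.86 and 1.88 CPM in R1881 and 0.131, 0.0727 and 0.411 CPM in vehicle with RCOR1 siRNA. Only R1881 with RCOR1 siRNA was high, at 26, 21 and 23 counts, against 1 to 5 counts in each of the other 9 libraries.

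**Figure D4:**
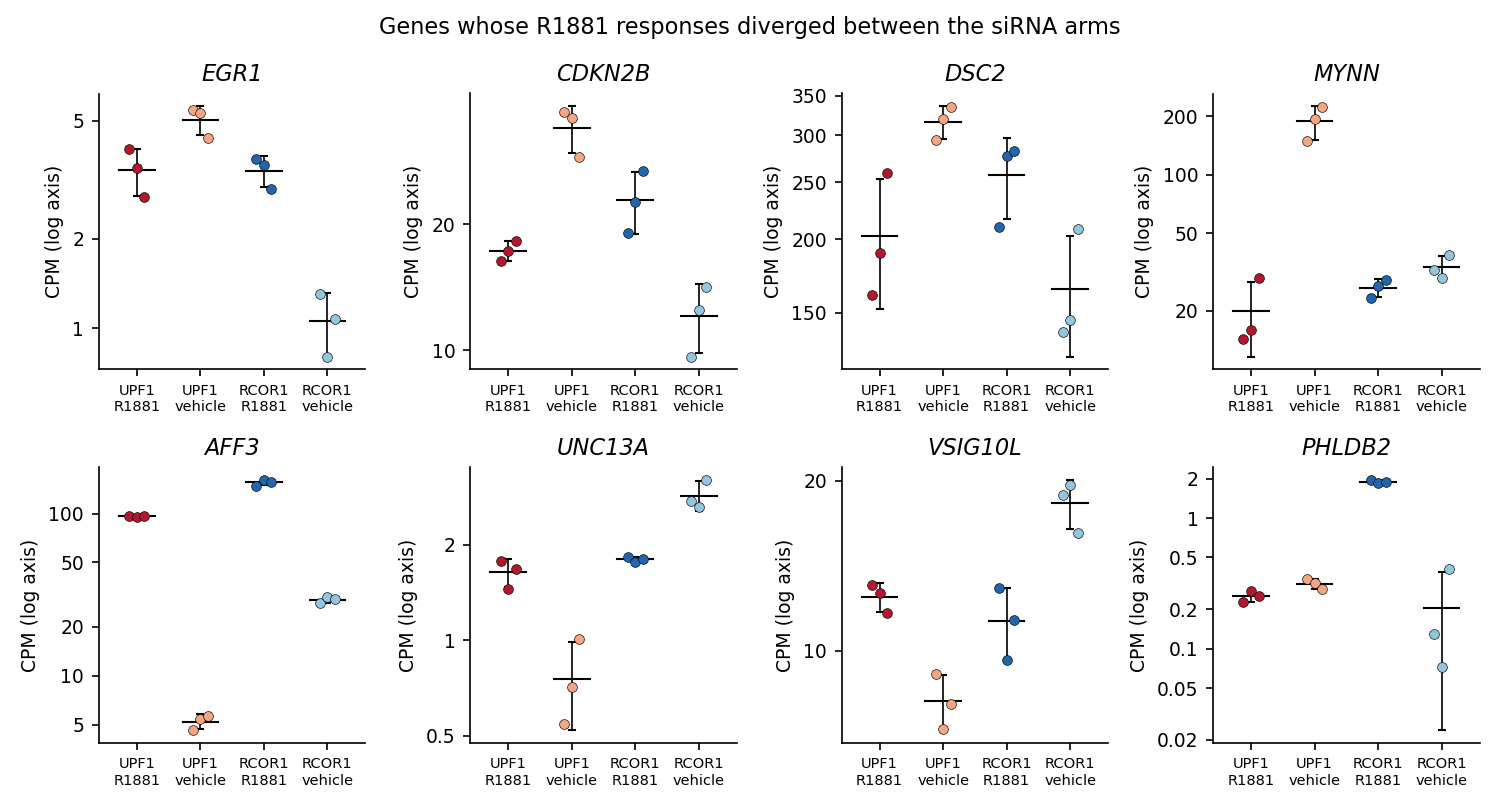
Levels in CPM (log axis) of 8 genes by siRNA and treatment; points are libraries, and bars show mean ± SD of 3 libraries. EGR1, CDKN2B and DSC2 are lower in R1881 than in vehicle with UPF1 siRNA and higher with RCOR1 siRNA, UNC13A and VSIG10L do the reverse, MYNN is high in vehicle with UPF1 siRNA, AFF3 rises in both arms, and PHLDB2 is high in R1881 with RCOR1 siRNA.

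UNC13A and VSIG10L moved in the reverse sense. UNC13A, which primes synaptic vesicles, was the only called gene of 19 neuronal genes repressed by REST (median difference 0.15), beside 1.57% of all genes tested. It had 1.78, 1.45 and 1.68 CPM in R1881 and 0.543, 0.713 and 1.01 CPM in vehicle with UPF1 siRNA, against 1.82, 1.77 and 1.8 CPM in R1881 and 2.74, 2.62 and 3.21 CPM in vehicle with RCOR1 siRNA. The R1881 levels overlapped between the siRNAs, and all 3 vehicle libraries with UPF1 siRNA were below those with RCOR1 siRNA. VSIG10L, an immunoglobulin-domain gene, rose by 0.61 with UPF1 siRNA and fell by 0.69 with RCOR1 siRNA (difference 1.31 ± 0.19; edgeR adjusted p = 0.00882). VAV3, NOX1, RGS2 and NRCAM had negative differences and vehicle levels that were higher with UPF1 siRNA. VAV3, an exchange factor for small GTPases, had 0.573, 0.207 and 0.252 CPM in R1881 and 11.7, 9.82 and 10.4 CPM in vehicle with UPF1 siRNA, against 0.304, 0.796 and 0.571 CPM in R1881 and 2.74, 3.13 and 2.8 CPM in vehicle with RCOR1 siRNA. It was below 1 CPM in all 6 R1881 libraries, and its vehicle level was higher with UPF1 siRNA, so it fell further there (difference -2.46 ± 0.49). NOX1, an NADPH oxidase (difference -2.48 ± 0.45), RGS2, a regulator of G protein signalling (-2.72 ± 0.60), and NRCAM, a neuronal adhesion molecule (-2.18 ± 0.42), showed the same order in vehicle (log2 ± SE). In vehicle with RCOR1 siRNA they had 5, 3 and 2, 4, 6 and 5, and 3, 7 and 4 counts. Their fold changes thus rest on few reads, and they were called in 4, 3 and 4 of the 12 fits without 1 library. SLITRK6, ITGB8, FUT9, EPHA7, ANGPT2, SLC10A5 and STX19, with GC contents between 34.5% and 38.9%, had differences from -4.18 to -1.75. With GC offsets these lay between -3.46 and -0.70, and the call was lost for STX19 (adjusted p = 0.0745).

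Among 37 listed genes for chaperones and secretion in the endoplasmic reticulum (ER), SDF2L1, CRELD2, PDIA4, FICD and MANF rose further with UPF1 siRNA and none was called lower, beside 0.769% called higher and 0.803% called lower among all genes tested. The median difference was 0.12, with 25 positive and 12 negative values from -0.81 to 1.02. The list rose in both arms: R1881 called 33 genes higher with UPF1 siRNA and 35 with RCOR1 siRNA, beside 19.7% and 15.6% of all genes tested. SDF2L1, a partner of the ER chaperone BiP, had 36.8, 29.7 and 29.4 CPM in R1881 and 13.7, 15.2 and 11.4 CPM in vehicle with UPF1 siRNA, against 17.5, 14.3 and 14.9 CPM in R1881 and 13.9, 12.9 and 13 CPM in vehicle with RCOR1 siRNA. Its R1881 libraries with UPF1 siRNA stood above the other 9, and the difference was 1.02 ± 0.19 (log2 ± SE; edgeR adjusted p = 0.026). CRELD2, a secreted ER stress protein, had 78.6, 75.9 and 70.7 CPM in R1881 and 38.7, 33.6 and 30.3 CPM in vehicle with UPF1 siRNA, against 42, 38 and 39.7 CPM in R1881 and 30.4, 33.1 and 29 CPM in vehicle with RCOR1 siRNA. PDIA4, a disulfide isomerase, had 399.5, 411 and 368 CPM in R1881 and 192, 179 and 190 CPM in vehicle with UPF1 siRNA, against 220, 198 and 202 CPM in R1881 and 152, 156 and 138.5 CPM in vehicle with RCOR1 siRNA. In both, the R1881 libraries with UPF1 siRNA were above the other 9, and the differences were 0.76 ± 0.14 and 0.60 ± 0.10 (adjusted p = 0.0269 and 0.0229). FICD, which AMPylates BiP, had 105, 104 and 95.2 CPM in R1881 and 28.9, 29.9 and 27 CPM in vehicle with UPF1 siRNA, against 47.2, 43.4 and 43.3 CPM in R1881 and 19.6, 20.1 and 16.8 CPM in vehicle with RCOR1 siRNA, and its difference was 0.58 ± 0.13. With GC offsets 10 members were called higher and 1 lower, at a median of 0.26, beside 468 higher and 370 lower of all 15076 genes tested. Without the AT-poor libraries the list's median was 0.08. Of the 12 fits that leave out 1 library, SDF2L1 and PDIA4 were called in 5, and CRELD2 and FICD in 4.

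The ER stress response element, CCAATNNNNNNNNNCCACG, was searched on both strands in the promoter windows of the 5 called genes. It is rare, at 27 of 35116 windows (0.0769%). It was found in CRELD2 (minus strand, -80 to -62) and FICD (plus strand, -154 to -136). These letters are not in the windows of SDF2L1, PDIA4 and MANF. The other listed ER genes were not searched, so whether the called genes hold it more often than those was not tested. The windows, chr22:49918384-49918683 for CRELD2 and chr12:108515027-108515326 for FICD (RefSeq, GRCh38.p14, plus strand), carry the fixed bases of the element in capitals.
CRELD2: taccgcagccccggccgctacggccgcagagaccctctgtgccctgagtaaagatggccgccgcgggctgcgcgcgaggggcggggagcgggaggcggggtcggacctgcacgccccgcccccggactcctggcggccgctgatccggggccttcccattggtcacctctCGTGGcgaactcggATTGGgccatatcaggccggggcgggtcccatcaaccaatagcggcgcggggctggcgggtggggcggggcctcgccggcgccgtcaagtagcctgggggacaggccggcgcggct
FICD: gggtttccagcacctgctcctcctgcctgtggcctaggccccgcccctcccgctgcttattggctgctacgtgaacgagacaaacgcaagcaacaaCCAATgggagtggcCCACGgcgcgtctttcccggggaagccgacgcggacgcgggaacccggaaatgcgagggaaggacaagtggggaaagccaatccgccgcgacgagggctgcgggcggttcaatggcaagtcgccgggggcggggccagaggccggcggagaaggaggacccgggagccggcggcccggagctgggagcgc

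Lipid, interferon and zinc genes held a few calls each, beside 0.769% called higher and 0.803% called lower among all genes tested. SCD, the desaturase that makes monounsaturated fatty acids, had 1113, 1080 and 1007 CPM in R1881 and 837, 799 and 807 CPM in vehicle with UPF1 siRNA, against 1249, 1092 and 1164 CPM in R1881 and 588, 557 and 559 CPM in vehicle with RCOR1 siRNA. Its R1881 levels overlapped and its vehicle levels were higher with UPF1 siRNA, so the rise was smaller by -0.65 ± 0.09 (log2 ± SE; edgeR adjusted p = 0.0084). ME1, a supplier of NADPH, also rose less (-0.52 ± 0.10), but its difference was 0.07 with GC offsets (adjusted p = 0.837). These were the 2 called genes of 16 in fatty acid synthesis, and edgeR called none of 25 sterol synthesis genes (7 at an unadjusted p below 0.05, 2 with DESeq2, 0 with limma-voom). Of 40 interferon-stimulated genes, HERC5, HERC6 and IFI44 were called lower, at a median of -0.36 for the list. That median was -0.25 with GC offsets and -0.28 without the AT-poor libraries. With GC offsets 5 members were called lower, beside 370 of all 15076 genes tested. HERC5, the ligase for ISG15, had 15.6, 16.4 and 21.1 CPM in R1881 and 15, 14.3 and 14.2 CPM in vehicle with UPF1 siRNA, against 17.2, 19.5 and 17.3 CPM in R1881 and 8.42, 5.09 and 7.65 CPM in vehicle with RCOR1 siRNA. It was called higher in R1881 with RCOR1 siRNA alone, where the vehicle libraries were the lowest of all 12. IFI44 has 39.1% GC, and its call was lost with GC offsets (-0.41, adjusted p = 0.138). Of 15 metallothionein and zinc transporter genes, 3 were called. The metallothionein genes MT1F and MT1G had positive differences, 1.25 ± 0.26 and 1.15 ± 0.24, and the zinc importer SLC39A8 a negative one, -1.27 ± 0.27. MT1F had 4.81, 7.26 and 5.71 CPM in R1881 and 2.38, 2.38 and 2.59 CPM in vehicle with UPF1 siRNA, against 2.2, 2.3 and 2.45 CPM in R1881 and 2.15, 2.25 and 2.47 CPM in vehicle with RCOR1 siRNA. Only R1881 with UPF1 siRNA was raised. MT1G instead fell with RCOR1 siRNA, by a log2 response of -0.90, and its response of 0.25 with UPF1 siRNA was not called. With GC offsets MT1F was at 1.06 and not called (adjusted p = 0.0619); metallothionein genes are near copies, so their reads may be exchanged.

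Cell cycle genes fell in both arms. The 40 mitosis genes had a median response of -1.76 in the UPF1 siRNA arm and -1.06 in the RCOR1 siRNA arm, and 38 and 26 of them were called lower, beside 22.4% and 16.1% of all genes tested. Over the libraries, the list's median response was -1.82, -1.72 and -1.63 with UPF1 siRNA, against -1.14, -1.18 and -0.81 with RCOR1 siRNA, without overlap. Each of these values compares 1 R1881 library with the mean of the vehicle libraries of its arm, so vehicle spread is left out. Among all genes tested, 43.49% had library responses that did not overlap between the arms. The median difference was -0.74, with 32 of 40 genes negative. EdgeR called no gene's difference, beside 1.57% of all genes tested. An unadjusted p of 0.05 was passed by 19, beside 24.29% of all genes tested. DESeq2 called 8, limma-voom 0, and edgeR with GC offsets 1, lower. Among all 15076 genes tested these called 863, 243 and 838. The most negative were CENPF and ASPM, at -4.30 and -4.22, and the median GC of the list was 43.8%. With GC offsets the list's median was -0.52 and without both AT-poor libraries -0.66. In the 48 DNA replication genes the median difference was 0.17, and FEN1, the flap endonuclease of lagging-strand synthesis, was called higher. FEN1 had 22.6, 23.4 and 22.8 CPM in R1881 and 21.2, 20.1 and 24.2 CPM in vehicle with UPF1 siRNA, against 26.5, 23.5 and 24.6 CPM in R1881 and 40.1, 40.5 and 37.6 CPM in vehicle with RCOR1 siRNA. It was high in vehicle with RCOR1 siRNA and nearly level in the other 9 libraries, a difference of 0.74 ± 0.13 (log2 ± SE; edgeR adjusted p = 0.0205).

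In the pathways of the siRNA targets edgeR called no gene in the 12 libraries scaled by TMM. It called 1.57% of all genes tested, a share at which lists of this size can hold no call. None of 19 NMD factors was called (3 at an unadjusted p below 0.05, 1 with DESeq2, 0 with limma-voom; median 0.04). It called none of 35 NMD targets (8 unadjusted, 1 with DESeq2, 0 with limma-voom; median 0.09). It also called none of 20 members and partners of the CoREST complex (9 unadjusted, 3 with DESeq2, 1 with limma-voom; median -0.16). With GC offsets edgeR called 2 NMD targets higher, at a median of 0.20, and 1 CoREST member higher, and 1 CoREST member was also called higher with scaling by library size and with all 18 libraries. No call by edgeR, DESeq2 or limma-voom was made among 79 ribosomal protein genes (median 0.19, 9 at an unadjusted p below 0.05), 13 mitochondrially encoded genes (median -0.06, 0 unadjusted), 14 nuclear-retained long RNAs (median -0.29, 4 unadjusted) or 6 markers of epithelial-mesenchymal transition (median 0.41, 1 unadjusted). Of 13 NF-kappaB targets edgeR and limma-voom called 0 and DESeq2 called 1, with 2 at an unadjusted p below 0.05, and edgeR with GC offsets called 1 lower. Among all 15076 genes tested 3662 (24.29%) passed an unadjusted p of 0.05, DESeq2 called 863 and limma-voom 243. With GC offsets edgeR called 468 of all genes higher and 370 lower. Of the 42 replication-dependent histone genes H2BC5 was called higher (0.69 ± 0.14; near copies, so of uncertain assignment), and of 41 integrated stress response genes STC2 (0.53 ± 0.11). TP53INP1 was called lower among 32 p53 targets, at -0.70 ± 0.15, but stood at -0.11 with GC offsets (adjusted p = 0.702). DESeq2 called 7 of these targets, and edgeR with GC offsets called 5 others lower, at a median of -0.18. Among markers of other cell types ACTA2, the smooth muscle actin, was called lower, with 8.47, 7.47 and 7.13 CPM in R1881 and 3.26, 3.8 and 3.24 CPM in vehicle with UPF1 siRNA, against 19.6, 20 and 21.2 CPM in R1881 and 4.63, 4.51 and 2.8 CPM in vehicle with RCOR1 siRNA. It was highest in R1881 with RCOR1 siRNA, and its part in the other differences was not tested.

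How many genes were called rested on single libraries. Leaving out replicate 3 of UPF1 siRNA with R1881, which is not AT-poor, gave 2481 calls. Leaving out replicate 1 of UPF1 siRNA with vehicle gave 938, replicate 3 of RCOR1 siRNA with vehicle 1010, and replicate 1 of RCOR1 siRNA with R1881 267. Leaving out any of the other 8 libraries gave between 33 and 90. Without both AT-poor libraries, which leaves 1 library in that group whose spread is taken from the other groups, 9 genes were called. The sign of the difference was the same for all 237 genes in each of these fits. The genes were chosen from the same libraries, so a kept sign adds no separate support. The genes called in all 12 fits without 1 library included AFF3, ANG, CDKN2B, EGR1, KLK2, KLK3, KLK4, LAMA1, MAF, MYNN, REXO5 and VSIG10L. With GC offsets 838 genes were called, among them 112 of the 116 higher and 94 of the 121 lower genes, and 5 of the 237 changed sign.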

How the data were processed

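RNA-seq counts of 12 LNCaP libraries were used (UPF1 or RCOR1 siRNA, R1881 or vehicle, 3 each). The deposited values are raw counts per gene, not normalized. Per the submitters' processing notes, reads went through bcl2fastq 2.20, STAR 2.7.9a, genome GRCh38.p7 and featureCounts of Subread 1.6.4; the sources used here give neither annotation release nor strand setting. Per the labels' protocols, libraries were made from 500 ng total RNA with ribosomal RNA depletion.

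Counts were filtered with filterByExpr, scaled by TMM and tested with edgeR 4.0.16 (R 4.3.3; quasi-likelihood, 4 group means, Benjamini-Hochberg over 15076 genes, called below 0.05). The SE is the absolute log2 difference over the square root of F. CPM are counts per library size after TMM scaling. GC content came from the longest GENCODE transcript and was found for 98.8% of genes; the annotation may differ from the submitters'. Totals of 11950288 to 17338235 counts limit the precision of genes near 1 CPM. The procedure was tested on simulated counts with a common dispersion for all genes and no GC trend. That test cannot show how the AT-poor libraries bear on the calls. Alternatives were DESeq2 1.42.0, limma-voom (limma 3.58.1), other scalings and filters, all 18 libraries, GC offsets, a within-group component as covariate, and leaving out libraries.

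Genes named were UPF1, RCOR1, KLK3, TMPRSS2 and FKBP5, the 12 called genes with the largest difference in each direction among those with a group mean of at least 1 CPM, up to 4 called members of each list, and 10 called genes with opposite responses; others were chosen after their values were seen. Members and lists were chosen with earlier results of these data known. Replicate numbers follow the order of deposition, since the labels give none, and were not used to pair libraries. No 2 libraries were identical (highest correlation 0.992). Some results are not reported here.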

Additional observations from a re-analysis of the deposited data

Results flagged for a closer look

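For 14 genes of the naming rule R1881 called a response in opposite directions in the 2 arms, and the difference itself was called by edgeR's quasi-likelihood test. Differences are UPF1 siRNA minus RCOR1 siRNA, on the log2 scale ± SE. Why they differ was not tested. UNC13A had a positive difference of 1.78 ± 0.31, and VSIG10L one of 1.31 ± 0.19, each with all 3 library responses positive with UPF1 siRNA and all 3 negative with RCOR1 siRNA. The other 12 fell with UPF1 siRNA and rose with RCOR1 siRNA.

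EGR1 was at -2.22 ± 0.30, and ACP3 and HERC6, with smaller responses in both arms, at -0.42 ± 0.09 and -0.66 ± 0.12. DSC2 was at -1.28 ± 0.27, STX19 at -1.75 ± 0.32, CDKN2B at -1.89 ± 0.23, and BVES, a membrane protein of the Popeye family, at -1.64 ± 0.27. BVES had 2.63, 2.9 and 3.44 CPM in R1881 and 4.89, 5.38 and 5.68 CPM in vehicle with UPF1 siRNA, against 6.23, 6.72 and 6.28 CPM in R1881 and 2.94, 3.2 and 5.02 CPM in vehicle with RCOR1 siRNA. R1881 with RCOR1 siRNA was highest in all 3 libraries, and R1881 with UPF1 siRNA overlapped with vehicle of the RCOR1 siRNA arm. NRCAM was at -2.18 ± 0.42 and had 1.49, 1.31 and 1.51 CPM in R1881 and 2.72, 2.61 and 3.24 CPM in vehicle with UPF1 siRNA, against 0.76, 0.619 and 0.979 CPM in R1881 and 0.196, 0.509 and 0.329 CPM in vehicle with RCOR1 siRNA. RP11-380B4.3, a gene known by a clone name, was at -2.45 ± 0.43, and SLITRK6 at -3.62 ± 0.74. SLITRK6 had 0.859, 0.691 and 2.01 CPM in R1881 and 1.29, 4.83 and 5.03 CPM in vehicle with UPF1 siRNA, against 4.41, 8.49 and 8.57 CPM in R1881 and 1.5, 1.38 and 2.8 CPM in vehicle with RCOR1 siRNA, and its replicate 3 in R1881 with UPF1 siRNA lay within the range of vehicle. ITGB8, an integrin beta chain, was at -4.18 ± 0.75 and had 0.286, 0.0691 and 0.504 CPM in R1881 and 1.29, 1.43 and 0.935 CPM in vehicle with UPF1 siRNA, against 1.82, 2.21 and 1.96 CPM in R1881 and 0.326, 0.145 and 0.987 CPM in vehicle with RCOR1 siRNA.

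HLA-B, a class I antigen-presenting molecule with many near copies, was at -9.46, with an SE of 1.995. It had 0.115, 0 and 0 CPM in R1881 and 7.81, 5.07 and 0 CPM in vehicle with UPF1 siRNA, against 6, 5.57 and 3.59 CPM in R1881 and 0.0653, 1.6 and 0 CPM in vehicle with RCOR1 siRNA. The replicates of a group were far apart, with vehicle values of 7.81 and 0 CPM in the same group, and limma-voom did not call it (adjusted p = 0.124). Its reads are of uncertain assignment.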

How the results depend on the processing

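The number of called differences, 237 (116 higher, 121 lower), depended strongly on the processing. It was 863 (327, 536) with DESeq2, 1932 (316, 1616) without a low-count filter, 838 (468, 370) with GC offsets and 4503 (1631, 2872) with a within-group component as covariate. It was 9 (5, 4) without replicates 1 and 2 of UPF1 siRNA with R1881, and 77 (39, 38) with GC offsets as well, a combination chosen after seeing the data. Leaving out 1 library gave 33 to 2481 calls (22 to 929 higher, 11 to 1552 lower). Relative log expression scaling gave 255, library size alone 255, a stricter filter 245, all 18 libraries 260 and limma-voom 243. R1881 calls were 2814 with UPF1 siRNA without those replicates, and 7284 with RCOR1 siRNA with the covariate; UPF1 against RCOR1 siRNA in R1881 gave 2196 calls without those replicates. The cause was not tested. Of the 58 called named genes, 12 were called in all 12 fits without 1 library and 52 with GC offsets. The sign turned for ME1 (0.074 with GC offsets) and, among genes not called, for FKBP5 (0.19) and UPF1 (-0.11; -0.048 also without those replicates) with GC offsets, and for RCOR1, whose difference ran from -0.033 to 0.292 over the fits without 1 library. Depth limits genes near 1 CPM. No paired analysis was run because the labels give the groups no shared replicate numbers. The deviation of genes below 40% GC did rise in the order of deposition in every group, and a fit by that order was not tested.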

Other observations

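Of the 237 called genes, 29 were called in every fit that leaves out 1 library, and 28 of these also with GC offsets. Those outside the naming rule are given here, chosen after their values were seen. SIPA1L2, a GTPase-activating protein, had 151, 137 and 154.5 CPM in R1881 and 41.6, 42.1 and 39 CPM in vehicle with UPF1 siRNA, against 45.7, 41.2 and 41.7 CPM in R1881 and 26.2, 26.8 and 30.8 CPM in vehicle with RCOR1 siRNA. R1881 with UPF1 siRNA was far above the other 9 libraries, and the difference was 1.23 ± 0.12 (log2 ± SE). ADRA2A, an adrenergic receptor, was 1.18 higher, C19orf48 1.16, and the calcium-activated potassium channel gene KCNMA1 1.02. ARG2, the mitochondrial arginase, was 0.94 higher, and the transcription factor gene MAF 0.84. The sialyltransferase gene ST3GAL1, which fell in both arms, was 0.75 higher, GLYATL1, a glycine acyltransferase gene, 0.72, and the ephrin ligand gene EFNA5 0.63. The antisense RNA CTBP1-AS had a difference of 0.94, with reads of uncertain strand.

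On the lower side, AMOTL1, a scaffold of the angiomotin family that binds YAP, had 20.6, 18.5 and 18.1 CPM in R1881 and 94.9, 84.8 and 80.8 CPM in vehicle with UPF1 siRNA, against 11.6, 13.4 and 10.5 CPM in R1881 and 14, 16.3 and 17.2 CPM in vehicle with RCOR1 siRNA. The vehicle libraries with UPF1 siRNA stood above the other 9, and the difference was -1.77 ± 0.16 (log2 ± SE). MYOF, a membrane repair protein of the ferlin family, was at -1.83, the R-spondin receptor gene LGR4 at -1.29, and DLAT, a subunit of pyruvate dehydrogenase, at -1.08. ITPR1, the calcium release channel of the ER, was at -0.93, and the cytokine gene TNFSF15 at -0.90. PARD6B, a cell polarity protein, was at -0.95 and was the 1 gene of the 29 that was not called with GC offsets.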
